A study of Caenorhabditis elegans with 2 samples.

Results

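The alpha and beta tubulins of Caenorhabditis elegans considered here are 10 genes, chosen by symbol from the 19487 genes with annotated introns in the deposited table. They are the alpha tubulins tba-1, tba-2, tba-4 and mec-12 and the beta tubulins tbb-1, tbb-2, tbb-4, tbb-6, mec-7 and ben-1. RNA came from mixed-stage embryos of strain BW1943, whose chromosome V bears 2 mutations, gad-1(ct226) and dpy-11(e224). Bleaching freed the embryos from worms cultured at 16 °C or 25 °C, and each temperature gave 1 stranded mRNA library. Both libraries come from the same mutant strain, so an effect of temperature and an effect of the mutation cannot be told apart. No wild-type library was analysed here.

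Microtubules are hollow tubes built from dimers of alpha and beta tubulin. Worm embryos need them for the meiotic and mitotic spindles, for centring of nuclei and for the axons and cilia of neurons. Several genes encode each subunit. In worms tba-1 and tba-2 act redundantly, as do tbb-1 and tbb-2, in the divisions of the early embryo. The mec-12 and mec-7 products build the large microtubules of the touch receptor neurons, tbb-4 is known from ciliated sensory neurons, and ben-1 is the target through which benzimidazole drugs act on worms. A tbb-6 reporter is known to respond to mitochondrial disruption through the kinases DLK-1, SEK-3 and PMK-3. GAD-1 is a WD-repeat protein that the series title links to the spliceosome and its Prp19-containing complex, to splicing of pre-mRNA and to elongation by RNA polymerase. Setting the temperatures side by side asks which transcripts keep more intron sequence and which differ in level.

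Reads in genes numbered 22016818 at 16 °C and 18175617 at 25 °C, and introns held 1.43% and 2.47% of them. With 1 library per temperature no difference has a replicate check. Intervals given below are exact 95% intervals for counting error only. They treat each read as independent, although PCR copies are not independent molecules, so they may be too narrow. Level means exon reads of a gene divided by its deposited exon length in kb, per 1000000 reads in genes of that library. Changes of level use library-scaled exon reads and carry no test. They are described by size, at 2-fold. The exon reads of gad-1 numbered 3123 at 16 °C and 2748 at 25 °C, a library-scaled fold of 1.07 (1.01 to 1.12), although read counts do not show what the allele does to the protein.

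In the Ensembl annotation of WBcel235, tba-1 lies on chromosome I from 9785781 to 9787624 and tba-2 on I from 12964674 to 12966795. On chromosome III lie mec-12 (3131574 to 3139234), ben-1 (3537642 to 3541639), tbb-2 (4015910 to 4017627) and tbb-1 (10740868 to 10742432). The gene tba-4 lies on II (10918706 to 10920211), tbb-6 on V (12261531 to 12263368), and mec-7 (7774856 to 7776689) and tbb-4 (9434452 to 9436893) on X. Each has 2 to 6 introns there, and tba-4 and tbb-6 lie on the plus strand while the others lie on the minus strand. The submitters' own build is not stated, so these positions may differ from their gene models.

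Tubulin transcripts took up nearly the same part of each library, while the isotypes within each class differed. Exon reads of the 10 genes made up 0.573% of the 16 °C library and 0.582% of the 25 °C library. Their summed level was 3408 at 16 °C and 3446 at 25 °C, a fold of 1.01. Alpha tubulins summed to a level of 1547 and 1581, and beta tubulins to 1861 and 1864. The alpha level was 0.832 of the beta level at 16 °C and 0.848 of it at 25 °C. Most of this came from tba-1, tba-2, tbb-1 and tbb-2, which held 93.6% of tubulin exon reads at 16 °C and 95.2% at 25 °C.

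**Figure D1:**
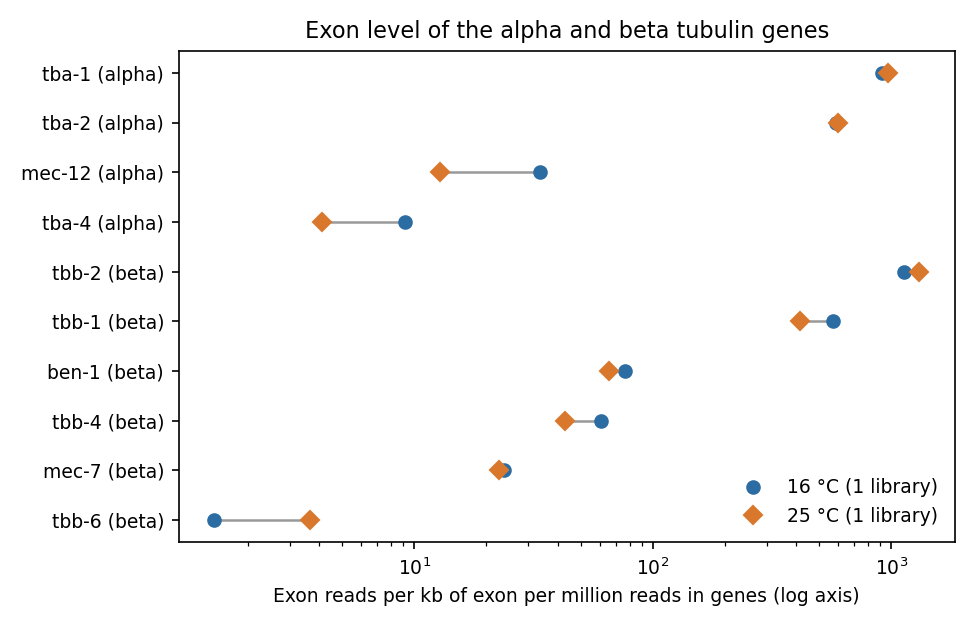
Exon level of each tubulin gene, in exon reads per kb of exon per 1000000 reads in genes (log axis), in the 16 °C library (circles) and the 25 °C library (diamonds), with 1 library each. The level of tbb-2 is the highest in both libraries at 1126 and 1313, that of tbb-6 the lowest at 1.45 and 3.65, and the widest gaps are those of mec-12, tbb-6 and tba-4.

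The order of levels at 16 °C was tbb-2, tba-1, tba-2, tbb-1, ben-1, tbb-4, mec-12, mec-7, tba-4 and tbb-6, over nearly 3 orders of magnitude. At 25 °C mec-12 came after mec-7 in this order and the other ranks were the same. With 1 library each the spread between samples is unknown, so no neighbouring ranks can be said to differ beyond it. Among all genes of the table, tbb-2 ranked 33 by level at 16 °C and 16 at 25 °C, and tba-1 ranked 54 and 25. The least abundant, tbb-6, ranked 12119 and 8833.

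Of the major alpha tubulins, tba-1 (gene F26E4.8) had 30648 exon reads at 16 °C and 26679 at 25 °C, a level of 916 and 966. After scaling this was 1.05-fold higher at 25 °C (1.04 to 1.07). For tba-2 (C47B2.3) the exon reads were 27212 and 22857, a level of 589 and 599, and the fold was 1.02 (1.0 to 1.04). Both genes lay within a few percent of their 16 °C level under this scaling, and at log2 0.46 and 0.41 when scaled by the median exon ratio of genes. The share of tba-1 in the reads of the pair was 53.0% at 16 °C (52.6 to 53.4) and 53.9% at 25 °C (53.4 to 54.3).

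The major beta tubulins differed in opposite directions, by sizes that depend on the scaling. Exon reads of tbb-2 (C36E8.5) numbered 41419 at 16 °C and 39891 at 25 °C, a level of 1126 and 1313, or 1.17-fold higher (1.15 to 1.18). Those of tbb-1 (K01G5.7) numbered 18899 and 11332, a level of 573 and 416, or 1.38-fold lower (1.35 to 1.41). Scaled by the median exon ratio of genes, tbb-2 stood at log2 0.61 and tbb-1 at -0.08, near its 16 °C level. With edgeR's TMM factors, another scaling between libraries, they stood at 0.56 and -0.13. In the reads of this pair, tbb-1 held 31.3% at 16 °C (31.0 to 31.7) and 22.1% at 25 °C (21.8 to 22.5). These shares need no scaling between libraries, and their intervals do not overlap, but the difference has no replicate check. As a share of summed beta tubulin level, tbb-1 went from 30.8% to 22.3% and tbb-2 from 60.5% to 70.5%.

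**Figure D2:**
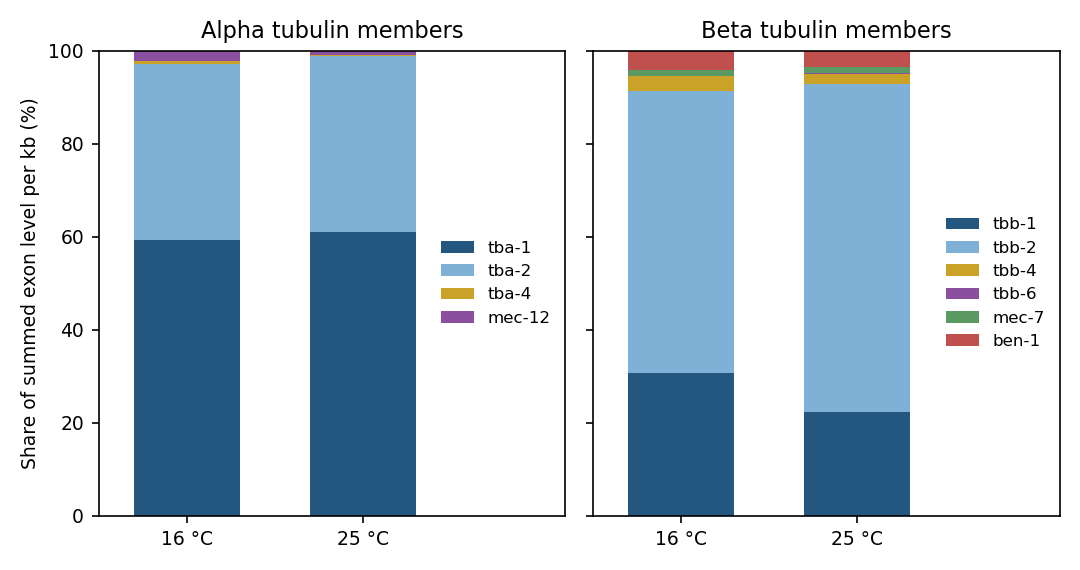
Share of the summed exon level per kb held by each of the 4 alpha tubulin genes (left) and 6 beta tubulin genes (right), in percent, with 1 bar per library. In the alpha class tba-1 holds 59.2% and 61.1%, whereas in the beta class tbb-1 goes from 30.8% at 16 °C to 22.3% at 25 °C and tbb-2 from 60.5% to 70.5%.

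The tubulins best known from neurons did not move together. The alpha tubulin mec-12 (C44B11.3) had 1191 exon reads at 16 °C and 375 at 25 °C, a level of 33.6 and 12.8, which was 2.62-fold lower (2.33 to 2.95). Its beta partner in touch receptor neurons, mec-7 (ZK154.3), had 1045 and 828 exon reads, a level of 23.7 and 22.8, and a fold of 0.960 (0.875 to 1.05). Within this pair, mec-12 took 53.3% of the reads at 16 °C (51.2 to 55.4) and 31.2% at 25 °C (28.6 to 33.9). The cilia-associated tbb-4 (B0272.1) stood between them, with 2093 and 1220 exon reads, a level of 60.8 and 42.9, and a 1.42-fold lower value at 25 °C (1.32 to 1.52). In the annotation mec-12 overlaps the protein-coding gene Y53G8B.1 on the other strand, and whether the counting used strand is not given in the sources used here, so its reads are uncertain.

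Neuron markers are given here beside those tubulins. Summed exon reads per 1000000 of the 11 pan-neuronal markers were 818 at 16 °C and 667 at 25 °C. On the log2 scale 10 of 11 lay below 0, against 9620 of all 14313 genes tested. Their median log2 was -0.58, against -0.42 over all genes tested, and 4 of the markers were at least 2-fold lower. That count of 4 of 11 is near the 33.6% of all genes at least 2-fold lower. It is above the 12.5% among genes with 1000 or more combined exon reads, which 9 of the 11 had. Scaled by the median exon ratio of genes, 8 of 11 lay below 0, against 7350 of all 14313 genes. Under that scaling 2 of the 11 were at least 2-fold lower, with egl-21 at -0.87. Of the 4, snt-1, the synaptotagmin of synaptic vesicles, was 3.84-fold lower (3.23 to 4.58), rab-3, a vesicle GTPase, 3.22-fold lower (2.82 to 3.70) and egl-21, a neuropeptide-processing enzyme, 2.39-fold lower (2.1 to 2.74). The kinesin gene unc-104 and unc-119, used as a marker of all neurons, were 1.23-fold and 1.42-fold lower. In the touch receptor list of 9 genes, the sum was 114 and 80.7 per 1000000, the median log2 was -0.30 and 6 of 9 lay below 0. Both values are near the background, a median of -0.42 and 9620 of 14313 genes below 0. Within the touch receptor list, mec-2, a stomatin of the touch channel, was 4.84-fold lower (3.59 to 6.65). The acetyltransferase gene mec-17 was 1.76-fold lower (1.44 to 2.15). Log2 values were -0.46 for the channel accessory gene mec-6 and 0.47 for the channel gene mec-10, which had 27 and 31 exon reads.

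Summed exon reads of ciliated neuron markers were 348 per 1000000 at 16 °C and 450.0 at 25 °C. Over 13 genes the median log2 was 0.19, with 9 above 0, 4 below it as tbb-4 was, and 12 within 2-fold. Of all 14313 genes tested, 4693 lay above 0. Scaled by the median exon ratio of genes, all 13 ciliated markers lay above 0, with a median of 0.58, while tbb-4 stood at -0.12. Of all genes 6963 were then above 0. At least 2-fold higher were then 5 of 13 ciliated markers, against 10.5% of all genes. This count depends on the scaling. It was 3 of 13 with edgeR's TMM factors, against 9.58%, and 1 of 13 when scaled by reads in genes, against 5.81%. The intraflagellar transport genes osm-1 and osm-6 were 2.07-fold (1.90 to 2.27) and 1.88-fold (1.59 to 2.24) higher, daf-10 was 1.62-fold higher (1.40 to 1.89), and the kinesin gene osm-3 had a fold of 0.941 (0.787 to 1.12). No marker of these 3 neuron lists had 0 exon reads in either library. Fewer cells of a type and less RNA per cell cannot be told apart in bulk embryos, and the part of the neuron markers in the values of mec-12, mec-7 and tbb-4 was not tested.

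The remaining tubulins were less abundant. The drug target ben-1 (C54C6.2) had 3368 exon reads at 16 °C and 2395 at 25 °C, a level of 76.2 and 65.6, and was 1.16-fold lower (1.1 to 1.22). The minor alpha tubulin tba-4 (F44F4.11) had 12.9 exon reads per 1000000 at 16 °C and 5.72 at 25 °C, a level of 9.19 and 4.09, and was 2.25-fold lower (1.79 to 2.84). The interval of tba-4 includes values under 2-fold. Of all members only tbb-6 (T04H1.9) was at least 2-fold higher at 25 °C. Its 61 exon reads at 16 °C and 127 at 25 °C gave a level of 1.45 and 3.65 and a 2.52-fold higher value (1.84 to 3.48), an interval that also reaches under 2-fold. The kinases known upstream of the tbb-6 reporter were within 2-fold. Library-scaled exon reads were 1.83-fold higher for dlk-1 (1.72 to 1.94) and 1.49-fold higher for pmk-3 (1.38 to 1.61), and 1.26-fold lower for sek-3 (1.16 to 1.37).

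Read as counts, 2 of the 10 tubulins were at least 2-fold lower at 25 °C, against 33.6% of the 14313 genes that had 10 or more exon reads in a library. At least 2-fold higher was 1 of 10, against 5.81% of those genes. Both counts rest on 1 or 2 genes. The median log2 of the tubulins was -0.14, and that of all these genes -0.42. In 6404 genes with 1000 or more combined exon reads, a minimum that 8 tubulins met, the median was -0.08 and 12.5% were at least 2-fold lower, and mec-12 was the only one of the 8 tubulins past that size. Scaling by the median exon ratio of genes adds 0.39 to every log2 value. Under it the log2 values of ben-1 and mec-7 turned from -0.22 and -0.06 to 0.17 and 0.33, tba-4 was no longer 2-fold lower at -0.78, and mec-12 stood at the 2-fold line at -1.0. Among the other genes named here, tba-5, pfd-2, atat-2, osm-3, unc-104 and sek-3 also turned from below to above 0. The genes cls-2, klp-7, osm-6, daf-10 and dlk-1 then passed 2-fold higher, and pfd-6, pfd-4, ptl-1 and egl-21 were no longer 2-fold lower. Of all genes, 27.0% were then at least 2-fold lower and 10.5% higher. The medians of the touch receptor, late matrix, folding and maternal lists turned to 0.09, 0.20, 0.37 and 0.37. Isotype shares do not depend on this choice.

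**Figure D3:**
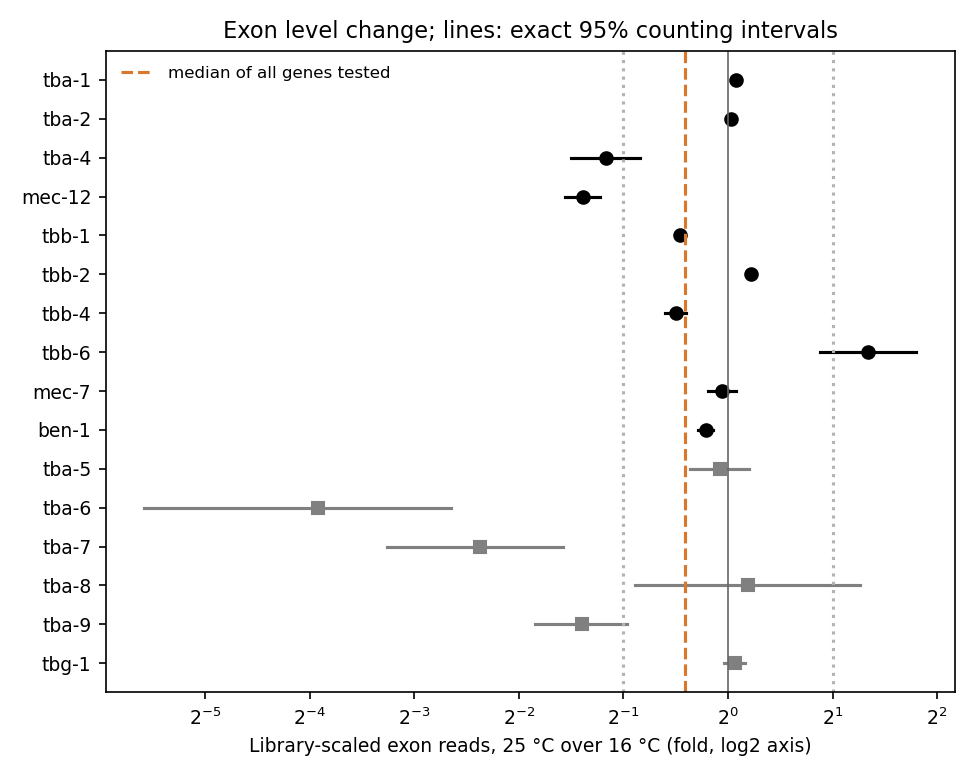
Library-scaled exon reads at 25 °C over 16 °C (fold, log2 axis) for the 10 tubulins (black circles) and 6 further tubulin genes (grey squares), with exact 95% counting intervals, dotted lines at 2-fold and a dashed line at the median of all genes tested. Most abundant tubulins lie near 1, mec-12, tba-4, tba-6, tba-7 and tba-9 lie at least 2-fold lower, and tbb-6 lies 2.52-fold higher.

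Further tubulin genes of the table were all scarce apart from the gamma tubulin gene tbg-1, whose product nucleates microtubules at centrosomes. Exon reads of tbg-1 were 1651 at 16 °C and 1424 at 25 °C, a fold of 1.04 (0.973 to 1.12). The alpha tubulins known from cilia differed among themselves. For tba-6 there were 92 and 5 exon reads, 15.2-fold lower (6.28 to 47.9), and for tba-9 there were 185 and 58, 2.63-fold lower (1.95 to 3.60). For tba-5 there were 242 and 189, a fold of 0.946 (0.778 to 1.15). The gene tba-7 had 94 and 15 exon reads, 5.17-fold lower (2.98 to 9.61), and tba-8 had 17 and 16. With tba-5 to tba-9 included, tba-1 and tba-2 together held 96.0% of the alpha level at 16 °C and 98.2% at 25 °C, against 97.2% and 98.9% among the 4 alpha members. The annotation places protein-coding genes over parts of tba-5, tba-6 and tba-7, so their reads are uncertain.

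The intron-to-exon read ratio was higher at 25 °C in the abundant tubulins tba-2, tbb-1 and tbb-2, and was not called in tba-1. Each gene's 4 counts were compared by a two-sided Fisher exact test with Benjamini-Hochberg adjustment over the 14972 genes with at least 10 combined reads. That test compares the reads of 2 libraries, not the temperatures. The ratio rose in 3 of 10 tubulins, fell in 0 and was not called in 7. Across all tested genes 28.1% rose and 0.614% fell, so the tubulin count was near the background. Among the 6404 genes with 1000 or more combined exon reads 51.0% rose. The median log2 of the tubulins was 0.78, and that of all tested genes 1.06. That 0.78 includes tba-4 and tbb-6, whose intron reads are too few for a fold. With 1000 or more combined exon reads the medians were 0.88 for tubulins and 1.04 for all such genes. With 10000 or more the order was the reverse, at 1.40 and 1.12.

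All tubulins have little intron sequence or few intron reads, which sets what can be seen. In the deposited table the summed introns were 95 bases in tbb-1, 98 in tba-4, 103 in tba-2, 177 in tbb-6, 204 in tbb-2, 270 in mec-7, 327 in tba-1, 878 in tbb-4, 918 in ben-1 and 6049 in mec-12. The median of all tested genes was 783. Annotated introns of tba-2, tbb-6 and ben-1 sum to more, 446, 358 and 1933 bases, so their intron counts may not cover every intron. Intron reads of the 10 genes summed to 198 at 16 °C and 253 at 25 °C.

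Introns of tba-2 had 12 reads at 16 °C and 31 at 25 °C, and the ratio rose 3.08-fold (1.54 to 6.58, exact test, adjusted p = 0.00339). For tbb-1 they were 17 and 30, and the ratio rose 2.94-fold (1.57 to 5.69, exact test, adjusted p = 0.00235). For tbb-2 they were 11 and 26, and the ratio rose 2.45-fold (1.17 to 5.50, exact test, adjusted p = 0.0451). That last call is lost when all genes with at least 1 read are tested (adjusted p = 0.0536), and over the other minimums tried its adjusted p was 0.0179 to 0.0451. Library-scaled intron reads of these 3 genes were 3.13-fold (1.56 to 6.69), 2.14-fold (1.14 to 4.13) and 2.86-fold (1.37 to 6.42) higher. Exon reads of tba-2 and tbb-2 were 1.02-fold and 1.17-fold higher, whereas in tbb-1 the 1.38-fold lower exon reads also entered the ratio.

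The tba-1 gene alone held 61.1% of tubulin intron reads at 16 °C and 53.0% at 25 °C. Its intron reads numbered 121 and 134, and the ratio of 1.27-fold was not called (0.987 to 1.64, exact test, adjusted p = 0.161). It had the most intron reads of the family and so the narrowest interval, whose upper bound of 1.64 lies below the median fold of 2.09 over all tested genes. In 875 genes with 10000 or more combined exon reads, 71.2% rose and the median log2 was 1.12. Among those abundant genes, 13.8% had a smaller ratio change than tba-1, whereas the figures were 75.2% for tba-2, 72.7% for tbb-1 and 57.6% for tbb-2. The interval of tba-1 overlaps those of tba-2, tbb-1 and tbb-2, which begin at 1.54, 1.57 and 1.17, and its value of 1.27 lies inside that of tbb-2. The difference between the genes was not tested. Summed over the 10 tubulins the ratio was 1.52-fold higher (1.26 to 1.85), and over the 9 without tba-1 it was 1.87-fold higher (1.39 to 2.52).

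**Figure D4:**
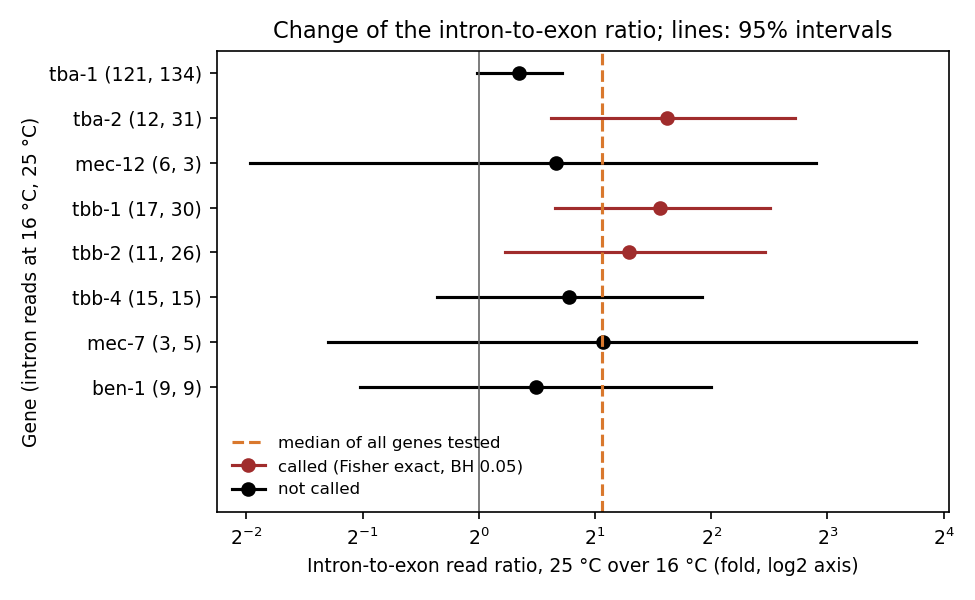
Fold of the intron-to-exon read ratio, 25 °C over 16 °C (fold, log2 axis) with exact 95% intervals for the 8 tubulins with more than 3 intron reads in a library. Intron reads per library stand beside each name. The called genes tba-2, tbb-1 and tbb-2 lie between 2.45 and 3.08, and the interval of tba-1 ends at 1.64, left of the dashed median of all tested genes.

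In the other tubulins intron reads were few and the ratio was not called. The ratio was 1.72-fold (0.778 to 3.78) in tbb-4 with 15 and 15 intron reads, and 1.41-fold (0.494 to 4.0) in ben-1 with 9 and 9. It was 2.1-fold (0.408 to 13.6) in mec-7 with 3 and 5 and 1.59-fold (0.256 to 7.48) in mec-12 with 6 and 3. These intervals include 1 and also the median of all tested genes. They therefore do not tell no change from a change of typical size. For tba-4 and tbb-6 there were 2 intron reads at 16 °C and 0 at 25 °C. Taking 3 reads as the limit of a count of 0, the intron share could be up to 2.88% of the reads of tba-4 and 2.36% of those of tbb-6, and the exact 95% intervals reach 3.48% and 2.86%. Both libraries lie at or under the floor of 3 reads there, so no fold is given. In the authors' deposited table the adjusted p of each of the 10 tubulins is 1, and the deposited folds of tba-2, tbb-1 and tbb-2 are 3.08, 2.94 and 2.45.

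Intron reads were also set against exon reads per base, which allows genes with unlike intron lengths to be compared. This density of intron reads was 0.218% of the exon density at 16 °C and 0.534% at 25 °C in tbb-2, and 0.134% and 0.213% in mec-12. Only 5.06% and 3.45% of 6404 well-counted genes (1000 or more combined exon reads) had a lower value at 16 °C than tbb-2 and mec-12. The median of such genes with an intron read was 2.01% at 16 °C and 4.26% at 25 °C. Densities of 1.84% and 2.33% in tba-1 and 1.42% and 4.18% in tbb-1 were closer to it, as were 2.13% and 4.48% in mec-7. For tba-2 the values were 0.899% and 2.77%, for tbb-4 1.28% and 2.19%, and for ben-1 0.585% and 0.822%. How reads that span an intron edge were counted is not given in the sources used here, and this matters most for introns shorter than a read.

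Genes that fold tubulin had a median log2 level change of -0.01, with 2 of 20 at least 2-fold lower and none higher, against 33.6% lower among all genes and 12.5% among those with 1000 or more exon reads, which 19 of the 20 had. The list joins the CCT chaperonin, prefoldin, the tubulin cofactors and evl-20. Within it pfd-6, pfd-4 and pfd-1, all prefoldin subunits, had the largest changes, at 2.57-fold (2.39 to 2.77), 2.07-fold (1.95 to 2.20) and 1.80-fold (1.71 to 1.90) lower. Scaled by the median exon ratio of genes, pfd-6 and pfd-4 stood at log2 -0.98 and -0.67, so none of the 20 was then 2-fold lower. The intron-to-exon ratio rose in 13 of 20 and fell in 0, against 28.1% rising among all tested genes and 51.0% among those with 1000 or more exon reads, and the median log2 was 1.18. It rose 4.24-fold (2.81 to 6.56) in the prefoldin gene pfd-2 and 4.10-fold (1.61 to 11.7) in the cofactor gene tbcb-1.

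Enzymes that modify tubulin had a median log2 level change of 0.15 in the 7 of 10 genes with enough exon reads. The tubulin tyrosine ligase-like gene ttll-12 went from 705 to 2095 exon reads, 3.60-fold higher (3.30 to 3.93), and ttll-11, a glutamylase, from 90 to 25, 2.97-fold lower (1.89 to 4.83). The ratio rose in 1 of 9 and fell in 1, against 28.1% and 0.614% of all tested genes, with a median log2 of 0.45. It rose 2.07-fold (1.37 to 3.16) in ttll-5. It fell in atat-2, a tubulin acetyltransferase, from 39 intron reads at 16 °C to 3 at 25 °C, a fold of 0.118 (0.0231 to 0.379, exact test, adjusted p = 7.96e-05).

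Microtubule regulators had a median log2 level change of 0.35, against -0.08 among genes with 1000 or more exon reads. Above 0 were 17 of 23, against 4693 of all 14313 genes tested. At least 2-fold lower was 1 of 23, against 33.6% of all genes and 12.5% of those with 1000 or more exon reads. That one was ptl-1, the worm tau homologue, which is known from neurons, at 2.42-fold lower (2.12 to 2.77). The CLASP gene cls-2 and klp-7, a microtubule-depolymerizing kinesin, were 1.87-fold (1.78 to 1.97) and 1.85-fold (1.72 to 1.98) higher, and mzt-1, a small partner of the gamma tubulin complex, was 1.95-fold lower (1.79 to 2.13). Scaled by the median exon ratio of genes, ptl-1 stood at log2 -0.89, so none was 2-fold lower. At least 2-fold higher were then 5 of 23, cls-2 at 1.29 and klp-7 at 1.27 among them, against 10.5% of all genes. The ratio rose in 11 of 23 and fell in 0, with a median log2 of 0.78. All 23 have 1000 or more exon reads, and the 51.0% of such genes that rose is near that count. It rose 8.18-fold (3.75 to 21.2) in lis-1, a dynein regulator, with 7 and 68 intron reads. In klp-7 it went from 1 to 52 intron reads, a ratio of 34.1 (5.83 to 1372).

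**Figure D5:**
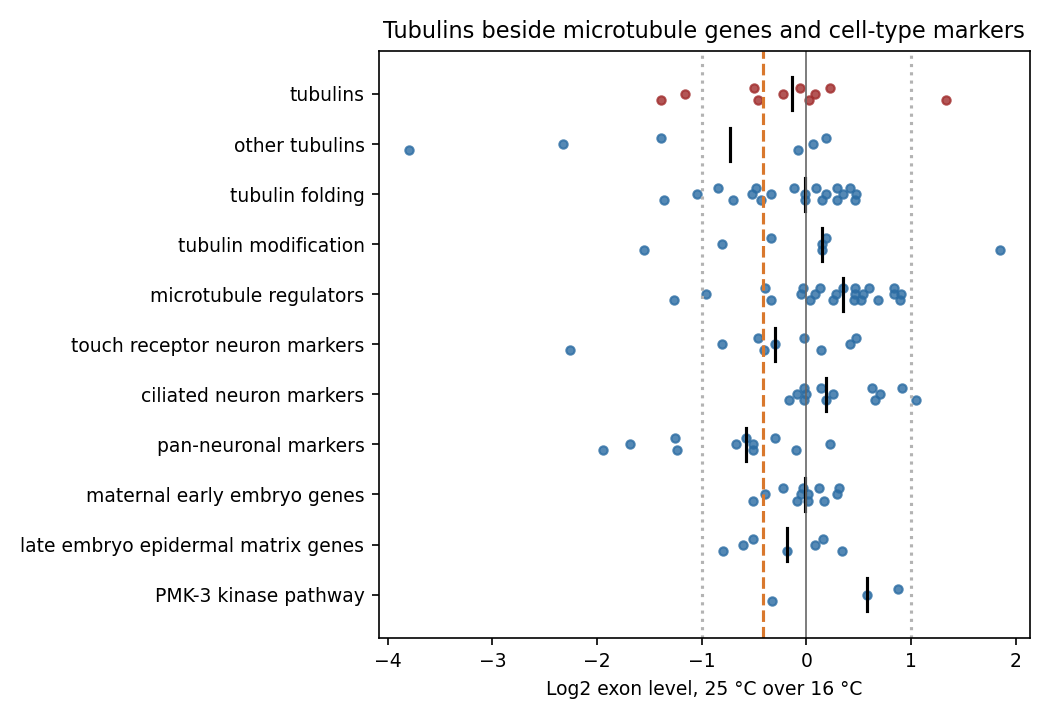
Log2 exon level at 25 °C over 16 °C of each gene in the tubulin set (red) and in the lists beside it (blue), with black bars at list medians, dotted lines at 2-fold and a dashed line at the median of all genes tested (-0.42). The tubulin median of -0.14 lies above that line, microtubule regulators have a median of 0.35 and pan-neuronal markers one of -0.58.

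Markers of embryo age are given because libraries of mixed stages can differ in it. The 12 maternal early embryo genes summed to 1548 exon reads per 1000000 at 16 °C and 1545 at 25 °C, with a median log2 of -0.01 and none past 2-fold. Among them pgl-1 and nos-2, germ plasm genes, were 1.43-fold and 1.32-fold lower, and mex-3, an RNA-binding regulator, 1.24-fold higher. The 8 late epidermal matrix genes summed to 6430.0 and 5492 per 1000000, with a median log2 of -0.19 in the 7 with enough reads and none past 2-fold. The collagen genes sqt-3 and dpy-7 were 1.75-fold (1.72 to 1.77) and 1.42-fold lower, the lipocalin gene lpr-3 was 1.52-fold lower, and dpy-13, with 7 and 0 exon reads, was the one gene of both lists at 0 in a library. The ratio rose in 3 of 12 maternal and 3 of 7 late genes and fell in none, against 28.1% rising among all tested genes and 51.0% among those with 1000 or more exon reads, which all 12 and all 7 had. It rose 4.83-fold (3.20 to 7.51) in noah-1 and 7.63-fold (3.0 to 24.8) in let-653, both genes of the embryonic apical matrix, and 3.01-fold (1.49 to 6.60) in mex-3, while 2.27-fold (0.953 to 5.77) in the maternal gene spn-4 was not called. Against the same 28.1%, it rose in 1 of 13 ciliated markers, and it fell in 1, against 0.614% of all tested genes. Among pan-neuronal markers it rose in 2 of 11, unc-119 with 1.66-fold (1.19 to 2.31) among them. Of those 11, 9 had 1000 or more exon reads, for which the 51.0% is the nearer background. Among touch receptor markers it rose in 3 of 9, with 2.48-fold (1.59 to 3.87) in mec-2 and 3.88-fold (1.39 to 12.4) in mec-6. The 3 kinases of the PMK-3 list all rose in ratio, with a median log2 of 1.15. All 3 had 1000 or more exon reads, and of such genes 51.0% rose, with a median log2 of 1.04. The part of embryo age in the tubulin values was not tested.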

How the data were processed

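Per the labels' protocols, stranded mRNA libraries were sequenced from 2 samples, 1 per temperature. Trimmomatic, TopHat2 and HTSeq are named in the submitters' processing notes, without versions. Build, annotation, strand setting and the treatment of reads that match several tubulin genes are likewise not given there. Tubulin genes are alike in coding sequence, so reads may be divided between them in an unknown way. The authors deposited raw counts of exon and intron reads per gene, with summed lengths. Per the file headers, columns marked control and experiment match the marks in the labels of 16 °C and 25 °C. The deposited fold is a ratio of intron-to-exon read ratios, and the deposited p-value equalled a two-sided Fisher exact test within 2% in 19487 genes.

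Fisher tests, exact intervals and medians were computed with scipy 1.17.1 over the whole table. Medians, and log2 values of level, use 0.5 added reads, whereas folds of single genes use none. Ratios were tested in genes with at least 10 combined reads, and calls were made at an adjusted p of 0.05. Levels were scaled by reads in genes, and edgeR 4.0.16 gave TMM factors as an alternative. No count model could be fitted without replicates. The steps were tested on simulated data. Positions were matched by gene identifier to Ensembl release 115 (WBcel235), whose intron length equalled the deposited one in 7 of 10 tubulins. The members and lists were chosen with earlier results of these data known. The 10 tubulins, gad-1, members of lists of 6 or fewer, and in longer lists up to 3 genes by level change (at least 50 exon reads) and 2 by ratio change (at least 20 intron reads) are named; other genes named (Y53G8B.1, dpy-13) were added after their values were seen. Protein and promoter sequences were not used here.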

Additional observations from a re-analysis of the deposited data

How the results depend on the processing

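Minimums of 1000 and 10000 combined exon reads and the count without mec-12 (3 rises) were chosen after seeing the data. With a Bonferroni adjustment of the exact test at 0.01, 0 tubulins rose, and the adjusted p of tba-2, tbb-1 and tbb-2 was then 1, past 0.05 as well. The authors' deposited adjusted p is headed FDR, and how it was computed was not tested. Over the other settings the count of rises was 2 or 3 and that of falls 0. The median ratio change of 0.78 was 0.78 to 1.40, the last in genes with 10000 or more exon reads, where the median of all such genes was 1.12. The median level change of -0.14 reversed to 0.25 with the median exon ratio and 0.20 with edgeR's TMM factors, which add 0.39 and 0.34 to each log2 value, and 1 tubulin instead of 2 was then at least 2-fold lower under both. The share of tba-1 and tba-2 in the alpha level, 97.2% and 98.9%, was 96.0% and 98.2% with tba-5 to tba-9 and 97.5% and 99.0% for reads not divided by length. For tbb-1 and tbb-2 it was 91.3% and 92.8%, and 90.2% and 91.8% for reads not divided by length. Median level change of the further tubulins (-0.73) became 0.06 in the 1 gene with 1000 exon reads, and the ciliated markers' median ratio change (-0.28) became 0.62 in the 4 with 20 intron reads. No paired analysis was possible because there is 1 library per temperature and the labels give no replicate numbers. Depth limits the ratio in genes with few intron reads.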

Other observations

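Within the folding list, the subunits of its complexes differed in level change, a split by known complex that was made after the values were seen and was not tested. The 8 CCT chaperonin subunits, which close around unfolded tubulin and actin, had a median log2 of 0.24, ranging from -0.12 to 0.46, with 7 of 8 above 0. The 6 prefoldin subunits, which hand those proteins to CCT, had a median of -0.78, ranging from -1.36 to -0.01, with 6 of 6 below 0. Of all 14313 genes tested, 4693 lay above 0 and 9620 below. The median of genes with 1000 or more exon reads was -0.08. Scaled by the median exon ratio, the CCT and prefoldin medians were 0.63 and -0.39, with pfd-2 above 0 and no prefoldin gene 2-fold lower, against 2 before. Summed exon reads went from 2505 to 2927 per 1000000 for CCT and from 843 to 479 for prefoldin. The ratio rose in 6 of 8 CCT genes and 5 of 6 prefoldin genes, with median log2 values of 1.14 and 1.71, against 28.1% rising among all tested genes and 51.0% among those with 1000 or more exon reads, which all of them had. The other 6 genes of the list were the tubulin cofactor genes tbca-1 to tbce-1 together with evl-20. Their median level change of -0.18 reversed to 0.21 scaled by the median exon ratio and 0.16 with TMM, and the ratio rose in 2 of 6.

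In 3 tubulins the deposited intron length differed from that of the Ensembl annotation. The deposited value against the annotated one was 103 against 446 bases in tba-2, 177 against 358 in tbb-6 and 918 against 1933 in ben-1. How reads in the stretches that differ were counted was not tested. Exon lengths differed too, at 2100 against 1676 bases in tba-2, 2001 against 1564 in mec-7, 1916 against 1480 in tbb-6 and 1671 against 1514 in tbb-2. Differences in tba-1, tba-4, tbb-1 and ben-1 were smaller, and mec-12 and tbb-4 had equal lengths. Levels, their ranks, the alpha to beta comparison and shares per kb rest on the deposited lengths. They were not computed with the annotated ones.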
